A study of Mus musculus with 9 samples.

Results

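The gene expression of MC38 cells treated with Cadict was compared with that of control cells (Ctrl). MC38 is a mouse colon carcinoma line, and Cadict is a nanodrug assembled from copper and cystine that also carries glucose oxidase and GE11, a peptide that binds the epidermal growth factor receptor. The study sequenced messenger RNA in 9 libraries, with 3 each of Ctrl cells, of cells given copper and cystine alone (Cu-Cys) and of Cadict-treated cells. The 6 libraries of Ctrl and Cadict form the comparison, and 11949 of 16509 genes in the table passed edgeR's filter on low counts and were tested. The labels name DMSO as the treatment of the Ctrl cells, whereas the figure legends of the study name PBS for the controls of the RNA sequencing, and the dose and time of treatment before sequencing are not given in the sources used here. The Cadict columns carry the abbreviation CCGE, and their match to Cadict was inferred from its components. Both groups are one cell line in culture, and the labels do not say whether the 3 libraries of a group came from separate cultures, so the p-values measure the spread between these libraries, which may be technical. The legend of the study gives n = 3 for the RNA sequencing, and its methods use n for biological replicates in general. No group received glucose oxidase or GE11 without copper and cystine, so the components of Cadict cannot be told apart in this comparison. The ribosomal, translation factor, mRNA processing and interferon genes were set aside, and the text covers the programs, gene families and single genes outside them.

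Copper kills cells in part by binding lipoylated enzymes of the mitochondrial citric acid cycle, a process called cuproptosis in which the ferredoxin Fdx1 takes part. Excess cystine in cells short of reducing power forms disulfide bonds in actin-binding proteins, a process called disulfidptosis that depends on the cystine importer Slc7a11. Cells answer misfolded or oxidised proteins and free metal ions through a few transcription factors with separate target genes: Hsf1 induces chaperones, Nrf2 (encoded by Nfe2l2) induces antioxidant enzymes, Mtf1 induces metallothioneins and Atf4 induces amino acid genes when translation initiation is inhibited.

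The total count per library was between 17905771 and 18293056 in the 6 libraries. The 10 most abundant genes took 4.72 to 4.83% of the counts in Ctrl libraries and 10.7 to 11.2% in Cadict libraries, and 935 to 951 genes made up 50% of the counts in Ctrl libraries against 325 to 362 in Cadict libraries. Counts were scaled by TMM, which sets the zero point at the bulk of the genes, with factors of 1.26 to 1.27 in Ctrl and 0.640 to 0.665 in Cadict libraries, and levels are given as CPM, a measure of the gene's part of the TMM-scaled library total that does not correct for transcript length. Counts of 3 correspond to 0.164 to 0.168 of unscaled CPM, the most that a count of 0 allows, and this limit covers counting error only. In TMM-scaled CPM the limit is higher in Cadict libraries, whose factors lie below 1. Among the cell type markers, 4 of the 8 epithelial genes in the table (Krt18, Krt7, Cldn4 and Cldn7) had at most 3 counts in each of the 6 libraries. Sums over markers are in unscaled CPM, so differences between the groups depend on the scaling. The TMM factors, above 1 in Ctrl and below 1 in Cadict, would lower the Ctrl sums and raise the Cadict sums. The 8 epithelial genes summed to 6.72 to 8.81 unscaled CPM in Ctrl and 15.9 to 17.1 in Cadict libraries. The defining epithelial markers of a colon carcinoma were thus nearly absent from both groups. The 9 mesenchymal markers summed to 3877 to 3971 unscaled CPM in Ctrl and 2137 to 2268 in Cadict libraries. The order of the groups in the mesenchymal sums would reverse with the TMM factors, so no direction is read from them. The 6 leukocyte markers in the table summed to 9.13 to 10.6 unscaled CPM in Ctrl and 15.3 to 17.7 in Cadict libraries. The 5 endothelial markers summed to 2.04 to 2.97 and 3.29 to 3.63 unscaled CPM, and the part of other cell types in the results was not tested. Egfr, which encodes the receptor that GE11 binds, had 0, 2 and 2 counts in the Ctrl libraries and 5, 5 and 2 in the Cadict libraries and was not tested. In bulk libraries fewer cells and less RNA per cell cannot be told apart. Cadict replicate 2 lay farther from the other Cadict libraries (chi-square of the counts per gene 14.7 and 23.2, where sampling noise alone gives about 1) than these lay from each other (3.64), while the Ctrl pairs had 1.89 to 2.06.

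In Cadict-treated cells 2472 genes were called higher and 3235 lower, where a called gene changed at least 2-fold at an adjusted p of at most 0.001 (quasi-likelihood F test of edgeR, Benjamini-Hochberg adjusted). These calls are the background for each gene list, 20.7% of tested genes higher and 27.1% lower, and the median log2 fold change of Cadict over Ctrl was -0.13 over all genes tested. The split of the calls depended on the scaling: 828 genes were higher and 6148 lower with library totals in place of TMM, 2746 and 2940 with DESeq2 size factors, 1888 and 3972 with upper quartile scaling, and 389 and 6475 with the deposited TPM. Scaling by library totals moved each gene's log2 fold change by nearly the same amount (median shift -0.95), which moves the zero point of the fold changes. DESeq2 size factors moved the median of all genes to -0.01, upper quartile scaling to -0.39, library totals to -1.08 and TPM to -1.13. Of 45 gene lists, which covered 1621 tested genes with 449 called higher and 399 lower, 30 had a median above 0 with TMM, 31 with DESeq2 size factors, 21 with upper quartile scaling, 11 with library totals and 8 with TPM. The 8 lists above 0 under each of these scalings were heat shock chaperones, immediate early and AP-1 genes, integrated stress response targets, the proteasome, the CCT chaperonin, the cytosolic aminoacyl-tRNA synthetases, NRF2 targets and the lysosome. With TPM 125 of the 449 list members called higher were below 0, each of them with a log2 fold change of at most 1.51 with TMM. All changes that follow are log2 fold changes of Cadict over Ctrl, with TMM unless another scaling is named, and a value of 1 is a 2-fold rise.

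**Figure D1:**
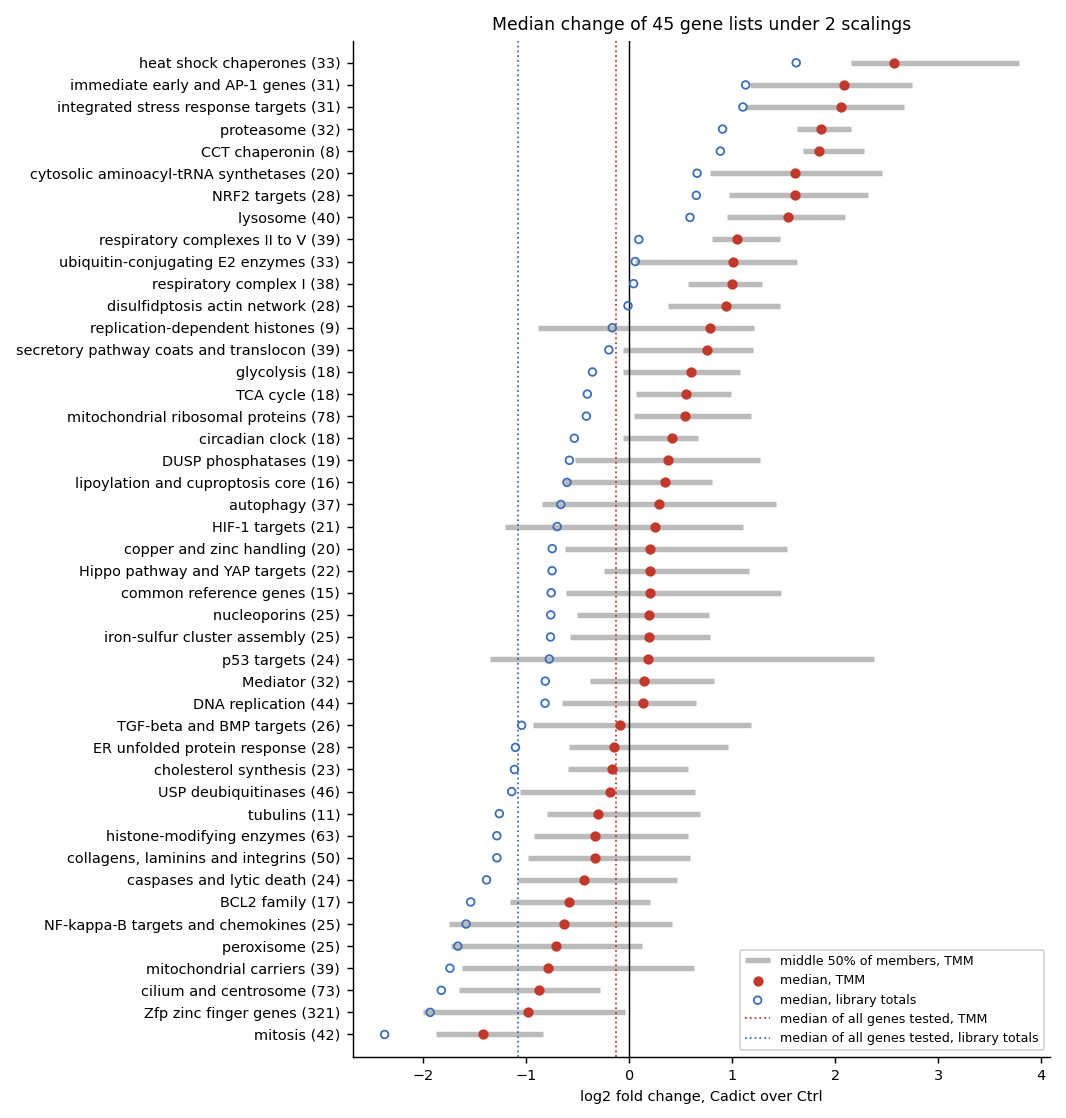
Median log2 fold change of Cadict over Ctrl (x axis) for the 45 gene lists (y axis, number of tested genes in brackets), with TMM as filled points and with library totals as open points; grey bars span the middle 50% of members and dotted lines mark the medians of all genes tested, -0.13 with TMM and -1.08 with library totals. The heat shock chaperones stand at the top with 2.57 and mitosis at the bottom with -1.42, and the open points lie to the left of the filled ones by a near constant distance.

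The heat shock chaperones, which keep proteins folded, had the highest median of the lists, and they changed most in the inducible HSP70 genes. Of 33 members tested 29 rose and 1 fell, with a median log2 fold change of 2.57 (1.62 with library totals, 26 higher and 2 lower, 1.27 with TPM). Their share went from 2.31% ± 0.0114 of counts in Ctrl libraries (SD, n = 3) to 8.56% ± 0.398 in Cadict libraries (SD, n = 3). Hspa1b (Entrez number 15511), the stress-inducible HSP70, had 18.7, 20.9 and 19.1 CPM in the Ctrl libraries and 27644, 22421 and 27317 CPM in the Cadict libraries. The 3 Ctrl libraries lay close together and far below each Cadict library, and the log2 fold change was 10.37 (standard error 0.14, adjusted p = 3.2e-17, quasi-likelihood F test of edgeR, Benjamini-Hochberg adjusted). Its near copy Hspa1a (Entrez number 193740) had 1, 0 and 1 counts in the Ctrl libraries and 17124, 13380 and 16766 in the Cadict libraries, a ratio of 46497 after scaling with a counting interval of 12871 to 383950 (95%, exact binomial). Of the 50-base stretches of the Hspa1a and Hspa1b transcripts, 60.3% and 62.3% also occur in another annotated gene, so reads could be split between them, and their sum went from 19.6 ± 1.17 to 27137 ± 3080 CPM (SD, n = 3 each). Hspb1, the small heat shock protein HSP27, had 1, 0 and 0 counts in the Ctrl libraries and 241, 206 and 279 in the Cadict libraries, a ratio of 1428 with a counting interval of 256 to 56490 (95%, exact binomial), and shares 48.8% of its stretches with another gene. Such shared stretches also made up 47.5% of Hsp90aa1, 38.6% of Hspa8, 25.9% of Cycs, 25.7% of Adrm1 and 24.7% of Gapdh. How far the sharing affects the values of these genes was not tested.

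Co-chaperones and regulators of HSP70 also rose. The nucleotide exchange factors Hsph1 and Bag3 changed by 4.76 and 4.18 on the log2 scale, and the J-domain proteins Dnajb1 and Dnaja4 by 4.60 and 4.95. The mitochondrial chaperonin pair Hspe1 and Hspd1 changed by 3.78 and 2.47, and the lens crystallin Cryab, a small heat shock protein, by 3.72. The abundant cytosolic chaperones Hsp90aa1, Hsp90ab1 and Hspa8 rose by less (2.57, 2.12 and 2.27), but from levels that already gave each of them 1 of the 10 largest shares of the counts in Ctrl cells. Hsf1 itself, the factor that induces these genes, had a log2 fold change of 0.31 and was not called, and the testis-enriched HSP70 genes Hspa2 and Hspa1l, which are not stress-inducible, had -1.31 (called lower) and -0.11 (not called), so the HSP70 genes did not all move in one direction. Cdc37, an HSP90 co-chaperone for kinases, was the remaining member that was not called (0.69). All 8 subunits of the CCT chaperonin, which folds actin and tubulin, rose, from 1.17 for Tcp1 (-0.14 with TPM) to 2.40 for Cct7. Their median of 1.84 was 0.88 with library totals and 0.53 with TPM, with 3 and 2 of the 8 called higher.

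Heat shock elements, the sites that Hsf1 binds, are built from inverted repeats of nGAAn, and the letters GAANNTTC and TTCNNGAA were searched on both strands in RefSeq promoter windows from 250 bases before to 50 bases after each start (GRCm38.p6). GAANNTTC occurred in 13 of 28 heat shock genes with a window (46.4%) and in 6.80% of 9547 tested genes with one. TTCNNGAA occurred in 7 of the 28 (25%) and in 8.04% of the tested genes. Among genes called higher GAANNTTC occurred in 7.93%, and among those called lower in 6.07%. The 200 bases before the start are shown for 3 members because these genes range from one near 0 in Ctrl cells (Hspb1) to ones among the 10 largest shares of counts in Cadict cells (Hspa1b and Hsph1), with the matches to either set of letters in capitals. The windows lie at chr17:34959239-34959438 on the minus strand (Hspa1b), chr5:135887719-135887918 on the plus strand (Hspb1) and chr5:149636316-149636515 on the minus strand (Hsph1).
Hspa1b: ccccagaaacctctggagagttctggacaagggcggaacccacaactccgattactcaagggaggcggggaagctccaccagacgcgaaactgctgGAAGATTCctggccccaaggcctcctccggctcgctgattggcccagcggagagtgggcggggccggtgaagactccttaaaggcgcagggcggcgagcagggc
Hspb1: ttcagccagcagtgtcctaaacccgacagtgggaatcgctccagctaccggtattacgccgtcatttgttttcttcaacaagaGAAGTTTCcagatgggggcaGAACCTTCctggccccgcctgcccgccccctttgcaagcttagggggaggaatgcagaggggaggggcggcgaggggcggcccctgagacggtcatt
Hsph1: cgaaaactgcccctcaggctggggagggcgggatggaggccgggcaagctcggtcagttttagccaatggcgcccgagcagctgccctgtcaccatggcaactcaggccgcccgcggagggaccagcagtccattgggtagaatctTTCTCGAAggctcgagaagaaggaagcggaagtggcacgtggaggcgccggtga
In the stretch shown the Hspa1b match begins 104 bases before the start, the Hspb1 matches 117 and 97 bases, and the Hsph1 match 54 bases, and 2 further matches of Hsph1 lie in its windows outside the stretch. A match describes the letters of the window and not a bound site.

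Genes of the proteasome also rose. The proteasome, which degrades ubiquitin-tagged proteins, had 30 of 32 members called higher and 0 lower, with a median of 1.86 (0.91 with library totals, 11 higher and 0 lower, and 3 higher with TPM) and a narrow spread with TMM: the middle 50% lay between 1.63 and 2.16. The ubiquitin receptor Adrm1 rose most (3.08), and the core subunit Psma1 and the base subunit Psmd2 were the members not called (0.90 and 0.93). With DESeq2 size factors all 32 members were called higher. The polyubiquitin gene Ubb, which supplies free ubiquitin, rose from 832 ± 19.3 to 8693 ± 423 CPM (SD, n = 3 each), and it shares 48.1% of its 50-base stretches with another gene. Of the E2 enzymes, which carry activated ubiquitin to its targets, 17 of 33 rose and 4 fell, and their median of 1.01 was 0.06 with library totals (7 higher and 8 lower) and -0.29 with TPM. Ube2g2 of the ER degradation pathway changed by 3.12, while Ube2c, which acts in mitosis, changed by -1.41. The USP deubiquitinases, which remove ubiquitin, had 9 of 46 higher and 12 lower, near the background, and 2 higher and 25 lower with library totals.

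The NRF2 targets held the largest single antioxidant change. Hmox1 (Entrez number 15368), which degrades heme to iron, carbon monoxide and biliverdin, had 24.4, 23.2 and 22 CPM in the Ctrl libraries and 18986, 19281 and 17676 CPM in the Cadict libraries. All Cadict libraries were above all Ctrl libraries, and the log2 fold change was 9.65 (8.70 with library totals, standard error 0.10, adjusted p = 5.4e-18, quasi-likelihood F test of edgeR, Benjamini-Hochberg adjusted). Hmox1 took 1.22% of the counts of Cadict cells against 0.00293% in Ctrl cells. Of 28 NRF2 targets 20 rose and 1 fell, with a median of 1.6 (0.65 with library totals, 9 higher and 3 lower, 0.26 with TPM), and 2 were lower without Cadict replicate 2. The iron-storing ferritin chains Fth1 and Ftl1 rose by 2.78 and 2.29, and Blvrb, biliverdin reductase B, by 2.88. Txnrd1, which reduces thioredoxin, rose by 3.89, and the glutathione synthesis subunits Gclm and Gclc by 3.50 and 1.41. Slc7a11, the cystine importer, rose by 1.47. Nqo1, a common readout of NRF2, had 0.96 and was not called (0.00 with library totals and 1.07 with DESeq2 size factors). Glutathione reductase Gsr had 0.08, and Keap1, which holds NRF2 inactive, fell with -1.32. The antioxidant element TGACNNNGC occurred in 9 of 24 NRF2 targets with a promoter window (37.5%) and in 17.0% of tested genes. It also occurred in 9 of 18 genes of copper and zinc handling, 4 of 28 heat shock chaperones and 5 of 26 proteasome genes with a window. The element was thus not particular to the NRF2 targets.

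Metallothioneins and zinc export rose, while genes of copper delivery in mitochondria held a rise and a fall. The metallothioneins Mt1 and Mt2, which bind copper and zinc, had 76.1, 80.3 and 72.1 CPM in the Ctrl libraries and 1181, 1563 and 1212 CPM in the Cadict libraries for Mt1 and 68.8, 74.7 and 69.2 CPM in the Ctrl libraries and 1309, 1742 and 1377 CPM in the Cadict libraries for Mt2. The groups did not overlap for either gene, and the log2 fold changes were 4.11 and 4.38 (standard errors 0.10 and 0.10). Slc30a1, the zinc exporter that Mtf1 also induces, rose by 4.29, and Mtf1 by 1.13. The copper exporter Atp7a and the copper chaperones Atox1, Ccs and Cox17 rose by 1.05, 1.40, 1.03 and 2.08, whereas the copper importer Slc31a1 had 0.18 and was not called. Cox11, which inserts copper into cytochrome c oxidase, fell with -2.61, and its mean over the 6 libraries was below 10 CPM. Over the whole list 9 of 20 members rose and 2 fell, and the median of 0.20 was -0.75 with library totals (4 higher and 9 lower) and -0.06 with upper quartile scaling. The metal response core TGCNCNC occurred in 14 of 18 of these genes with a window and in 64.2% of tested genes.

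Of the lipoylation and cuproptosis core 3 of 16 members rose and 4 fell, and the median of 0.35 was -0.60 with library totals (0 higher and 6 lower). The enzymes that make and attach lipoic acid, grouped after their values were seen, were the ones that fell together with Dbt. Dbt is a lipoylated subunit of branched-chain ketoacid dehydrogenase. Lipt1, the lipoyl transferase, had 7.14, 7.66 and 7.59 CPM in the Ctrl libraries and 0.510, 0.784 and 0.672 CPM in the Cadict libraries, Lipt2, the octanoyl transferase, went from 2.20 ± 0.220 to 0.197 ± 0.211 CPM (SD, n = 3 each), and the lipoyl synthase Lias from 24.2 ± 0.210 to 11.7 ± 0.762 CPM (SD, n = 3 each). The Cadict mean of Lipt2 lies near the limit set by 3 counts, and its SD exceeds the mean. The groups did not overlap for Lipt1, whose log2 fold change was -3.50 (standard error 0.23, adjusted p = 6.0e-10, quasi-likelihood F test of edgeR, Benjamini-Hochberg adjusted). The lipoylated enzyme subunits Dlat and Dlst rose by 1.19 and 1.41. Fdx1 had 0.93, just inside the limit of 2-fold, and was not called. Its value was 1.06 without Cadict replicate 3, where it was called, 1.04 with DESeq2 size factors and -0.03 with library totals. Iron-sulfur cluster assembly had 3 of 25 members higher and 2 lower (1 higher and 10 lower with library totals). Its largest changes were those of Hspa9, a mitochondrial HSP70 (2.67), and of Iba57, which acts late in the assembly of these clusters (-2.51). The mean of Iba57 over the 6 libraries was below 10 CPM.

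**Figure D2:**
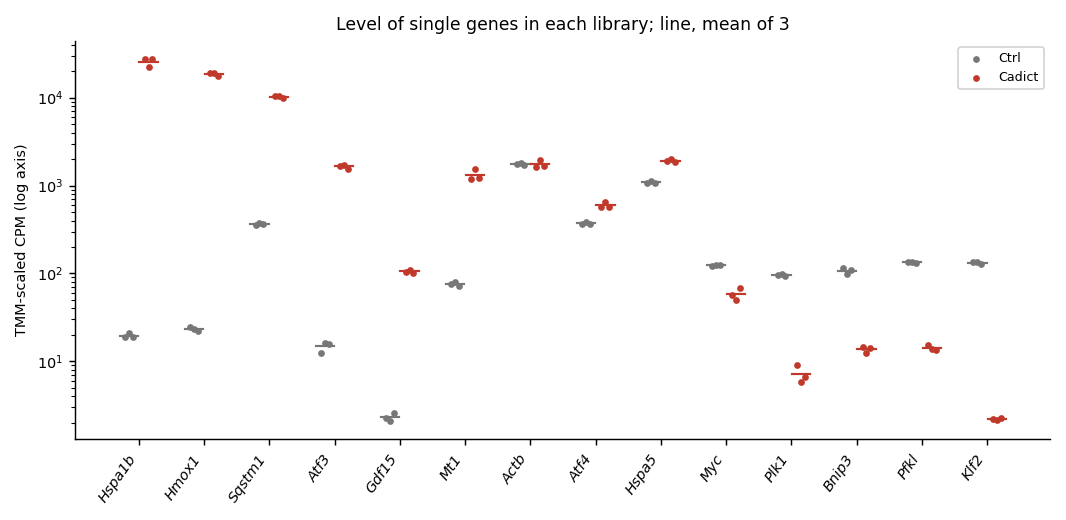
Level of single genes in each of the 3 Ctrl and 3 Cadict libraries (y axis, TMM-scaled CPM on a log axis), with a line at the mean of each group. Hmox1 went from 23.2 to 18648 CPM and Klf2 from 133 to 2.22 CPM, while the Actb libraries of both groups overlap between 1631 and 1938 CPM with TMM (log2 fold change -0.97 with library totals).

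Targets of the integrated stress response rose, while shares of the ER unfolded protein response list were near or below the background. Of 31 integrated stress response targets 23 rose and 0 fell, with a median of 2.06 (1.10 with library totals, 16 higher and 1 lower). Atf3, a transcription factor induced by many stresses, had 12.3, 16.1 and 16 CPM in the Ctrl libraries and 1664, 1734 and 1554 CPM in the Cadict libraries, a log2 fold change of 6.80. Ppp1r15a, which restores translation, Ddit3 (CHOP) and the secreted cytokine Gdf15 rose by 5.74, 2.59 and 5.51. The serine synthesis enzymes Phgdh, Psat1 and Psph rose by 2.39, 2.36 and 3.50, asparagine synthetase Asns by 2.06, and the amino acid transporter subunits Slc3a2 and Slc7a5 by 2.98 and 2.11. Among the 8 members not called were Atf4 itself (0.68, and -0.28 with library totals), Trib3 (0.37) and Chac1 (0.42), the last a glutathione-degrading enzyme. Of the cytosolic aminoacyl-tRNA synthetases, which charge tRNAs with amino acids, 12 of 20 rose, led by Nars (2.97), and Qars fell (-1.66). With library totals 6 were higher and 3 lower.

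The ER unfolded protein response had 7 of 28 members higher and 4 lower, and its median of -0.15 was close to the -0.13 of all genes (2 higher and 16 lower with library totals). The ER J-domain protein Dnajb9 and the sensors Atf6 and Ern1 (IRE1) rose by 3.09, 2.24 and 1.41. The third sensor, Eif2ak3 (PERK), fell with -1.65, as did the folding factors Pdia4 (-1.79) and Sdf2l1 (-2.29). Hspa5 (BiP), the main ER chaperone, had 1059, 1134 and 1072 CPM in the Ctrl libraries and 1901, 2009 and 1872 CPM in the Cadict libraries, which do not overlap, and its log2 fold change of 0.82 was below the limit of 2-fold (-0.13 with library totals). Xbp1 and Herpud1, which rise in ER stress, had -0.70 and -0.65 and were not called. Secretory pathway coats and translocon genes had 13 of 39 members higher and 0 lower, with a median of 0.76 that was -0.20 with library totals (2 higher and 10 lower).

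**Figure D3:**
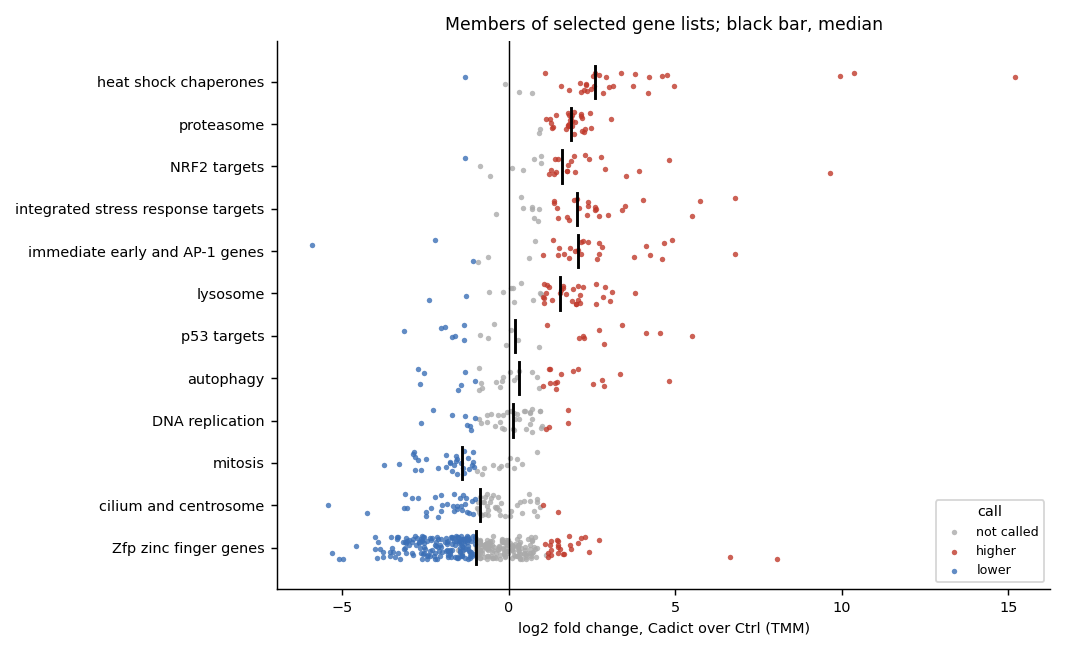
Log2 fold change of Cadict over Ctrl with TMM (x axis) for each tested member of 12 gene lists (y axis), coloured by call, with a black bar at the list's median. The proteasome lies in a narrow band, whereas p53 targets and autophagy spread to both sides of 0, and values of members with at most 3 counts in a group, among them Hspa1a at the right end, depend on the prior count of the fit.

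Immediate early genes, most of them transcription factors, which respond within minutes to growth or stress signals, had 24 of 31 members higher and 3 lower, with a median of 2.08 (1.13 with library totals, 17 higher and 5 lower). The AP-1 members Fosb, Fos, Fosl1 and Junb rose by 4.91, 3.77, 2.70 and 2.17, and the small Maf proteins Maff and Mafk, which pair with NRF2 or with each other, by 4.60 and 4.24. Egr1 rose by 4.13. The 3 members that fell were the Krüppel-like factors Klf2 and Klf4 and the growth regulator Myc. Klf2 had 134, 136 and 129 CPM in the Ctrl libraries and 2.21, 2.18 and 2.27 CPM in the Cadict libraries, Klf4 changed by -2.21 and Myc by -1.09. The Klf2 libraries of the groups were far apart (-5.90, standard error 0.10), while the Myc call was lost without Cadict replicate 2 (-0.99). With DESeq2 size factors Myc was also inside the limit of 2-fold (-0.97), and with library totals it had -2.04. The DUSP phosphatases, which switch off MAP kinases, had 5 of 19 higher, led by Dusp5 (2.88), and 4 lower, with Dusp7 lowest (-2.74), against 1 higher and 9 lower with library totals. Their shares with TMM, 26.3% higher and 21.1% lower, compare with 20.7% and 27.1% of all genes tested. Without Cadict replicate 1 the number of DUSP genes called lower was 1, and without Ctrl replicate 1 or 3 it was 2.

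NF-kappa-B targets and chemokines had 3 of 25 members higher and 10 lower, with a median of -0.63 (-1.58 with library totals, 3 higher and 17 lower). The monocyte chemokine Ccl2 had 369, 399.5 and 385 CPM in the Ctrl libraries and 63.6, 76.9 and 63.0 CPM in the Cadict libraries, and all Cadict libraries were below all Ctrl libraries (-2.50). The feedback inhibitors Nfkbia and Nfkbie fell (-1.64 and -3.81), as did the survival factors Birc2 and Birc3 (-2.0 and -2.45), while Nfkbib rose (2.59).

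The p53 targets divided into members that rose and members that fell. Of 24 members 10 rose (41.7%) and 7 fell (29.2%, near the 27.1% of all genes), and the median of 0.18 was -0.78 with library totals (9 higher and 11 lower) and -0.08 with upper quartile scaling. The cell cycle inhibitor Cdkn1a had 58.8, 59.4 and 58.6 CPM in the Ctrl libraries and 428, 420.3 and 429 CPM in the Cadict libraries, which do not overlap, and rose by 2.85. Gadd45a, Plk3, Sesn2, Mdm2 and the cell death genes Pmaip1 and Bax rose by 4.55, 4.12, 3.39, 2.27, 2.71 and 2.09. Phlda3, the repair factor Xpc, Ccng1, the death receptor Fas and the BH3-only gene Bbc3 (PUMA) fell by 3.14, 2.04, 1.92, 1.71 and 1.61 on the log2 scale. Gdf15, Sesn2 and Btg2 also stand in the integrated stress response or immediate early lists. The BCL2 family had 2 of 17 members higher and 7 lower, with the anti-apoptotic Bcl2 at -1.95, and 2 higher and 12 lower with library totals. Caspases and lytic death genes had 3 of 24 higher, namely the caspase-8 inhibitor Cflar (2.3), cytochrome c (Cycs, 2.24) and the necroptosis effector Mlkl (2.0), and 7 lower, among them Ripk1 (-1.42) and Fadd (-1.53), and 3 higher and 13 lower with library totals.

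Lysosomal genes rose, and the proton pump among them. Of 40 members 29 rose and 2 fell, with a median of 1.54 (0.59 with library totals, 14 higher and 4 lower, 0.22 with TPM). In a division of the list made after its values were seen, among the 15 subunits and accessory proteins of the V-ATPase, the pump that acidifies the lysosome, 14 rose with a median of 2.07 (1.12 with library totals), and the exception was Atp6v0a1 (0.07). Among the other 25 members 15 rose and 2 fell, with a median of 1.07 (0.12 with library totals). The alpha-galactosidase Gla went from 14.6 ± 0.945 to 201 ± 3.26 CPM (SD, n = 3 each), and the proteases Ctsd, Ctsb and Ctsl rose by 2.61, 2.03 and 2.02. Naglu and Lipa, which degrade heparan sulfate and cholesterol esters, fell with -2.39 and -1.3.

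Autophagy had 15 of 37 members higher and 7 lower, and its median of 0.29 was -0.66 with library totals (6 higher and 15 lower). The cargo receptor Sqstm1 (p62), which is also an NRF2 target, had 355, 371 and 369.6 CPM in the Ctrl libraries and 10356, 10391 and 10007 CPM in the Cadict libraries and rose by 4.81, and in Cadict cells it carried most of the list's share of the counts, which went from 0.259% to 0.967%. Among 10 ATG8 proteins and cargo receptors, grouped after their values were seen, 6 rose and 4 were not called, with a median of 1.67 (0.71 with library totals). The ATG8 proteins among them, which coat the autophagosome, had 3.33 for Gabarapl1, 2.85 for Map1lc3b, 2.80 for Gabarapl2 and 1.91 for Gabarap, all of which rose. Among 10 members of the ULK1 and PI3-kinase complexes that start autophagy, grouped in the same way, 3 rose, 4 fell and the median was -0.61 (-1.57 with library totals). Those that fell were Pik3r4 (-2.68), Ulk2 (-2.54), Atg13 (-1.51) and Rb1cc1 (-1.32), and the ATG8 protease Atg4c fell with -2.75. Atg4c had a mean below 10 CPM over the 6 libraries.

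**Figure D4:**
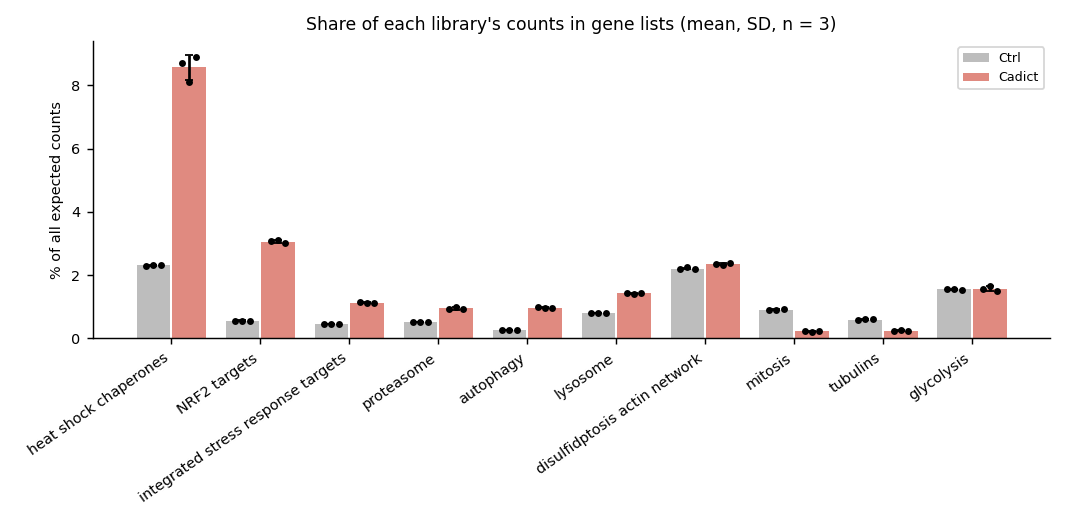
Share of each library's total count taken by 10 gene lists (y axis, percent of all expected counts), as bars with the mean, error bars with the SD and points for the 3 libraries of each group. The shares do not use the TMM factors. They are relative to the library total, so they carry the same zero point as scaling by library totals. Heat shock chaperones went from 2.31% to 8.56% and NRF2 targets from 0.557% to 3.06%, while mitosis went from 0.907% to 0.218%.

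Of the respiratory complexes II to V 22 of 39 subunits rose and 1 fell, and of complex I 18 of 38 rose and 1 fell. Their medians of 1.05 and 1.00 became 0.09 and 0.04 with library totals, where 1 and 0 were higher and 2 and 4 lower, and -0.28 and -0.36 with TPM. The cytochrome oxidase subunit Cox4i1 rose by 1.95, and Ndufa13 of complex I by 1.66. The exceptions that fell were cytochrome c1, Cyc1 (-1.24), and the flavoprotein subunit Ndufv1 (-1.94), which went from 100.4 ± 1.95 to 26.2 ± 1.84 CPM (SD, n = 3 each). Mitochondrial ribosomal proteins had 26 of 78 higher and 6 lower, with a median of 0.54 that was -0.42 with library totals (2 higher and 19 lower) and, with TMM, 0.35 without Cadict replicate 2. The SLC25 mitochondrial carriers, which move metabolites across the inner membrane, had 8 of 39 higher and 16 lower, with a median of -0.79 (-1.74 with library totals, 3 higher and 25 lower). The ATP-magnesium carrier Slc25a25 rose by 3.02 and the phosphate carrier Slc25a3 by 1.41, while the aspartate-glutamate carriers Slc25a12 and Slc25a13 fell with -1.52 and -1.09.

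Glycolysis held changes in both directions within one pathway. Of 18 members 6 rose (33.3%) and 4 fell (22.2%), against 20.7% and 27.1% of all genes tested, which also moved both ways. The median of 0.60 was -0.36 with library totals (1 higher and 6 lower). The glucose transporter Slc2a1 and the lactate transporter Slc16a1 rose by 1.99 and 1.77. The phosphofructokinase isoform Pfkl, which catalyses the committed step, had 136, 134 and 132 CPM in the Ctrl libraries and 15.5, 13.8 and 13.4 CPM in the Cadict libraries, which do not overlap. Its log2 fold change was -3.24 (standard error 0.069), that of the isoform Pfkm -1.51, and that of Pfkp -0.03 (not called). Ldha, which makes lactate, had 0.49 and was not called (-0.46 with library totals). The HIF-1 targets had 6 of 21 higher and 5 lower, near the background, and their median of 0.25 was -0.70 with library totals (1 higher and 9 lower) and -0.01 with upper quartile scaling. Ndrg1 and the angiogenic factor Vegfa rose by 1.98 and 1.68, whereas the mitophagy receptor Bnip3 (-2.97), the pyruvate dehydrogenase kinase Pdk1 (-2.85) and the prolyl hydroxylase Egln3 (-1.96) fell. Txnip, which rises with intracellular glucose, had 0.82 and was not called (-0.14 with library totals).

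Of the citric acid cycle genes 5 of 18 rose and 0 fell, with a median of 0.55 (-0.41 with library totals, 0 higher and 3 lower), and without Cadict replicate 2 the number that rose was 3. Citrate synthase Cs rose by 1.17. The peroxisome list had 2 of 25 members higher, 11 lower and a median of -0.71 (-1.66 with library totals, 0 higher and 17 lower). Cholesterol synthesis had 2 of 23 higher and 4 lower (0 higher and 13 lower with library totals). Msmo1 rose by 1.2 (-0.09 with TPM), and the mevalonate kinase Mvk fell with -2.24.

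The actin network linked to disulfidptosis had 13 of 28 members higher and 2 lower, and its median of 0.94 was -0.01 with library totals (1 higher and 5 lower). Myosin light chain Myl6, the actin-severing protein Dstn and cofilin Cfl1 rose by 2.15, 1.89 and 1.71. Actg1, cytoplasmic gamma actin, rose by 1.13 (0.18 with library totals and -0.18 with TPM), and it shares 37.4% of its 50-base stretches with another gene. Actb, beta actin, had 1769.5, 1787 and 1735 CPM in the Ctrl libraries and 1631, 1938 and 1657 CPM in the Cadict libraries, which overlap, and its log2 fold change of -0.02 was -0.97 with library totals. Cyfip1 of the WAVE complex and the formin Inf2, which both promote actin assembly, fell with -1.97 and -2.21. Of 11 tubulin genes tested 2 rose and 2 fell (1 higher and 7 lower with library totals). These are 18.2% each with TMM, near or below the 20.7% higher and 27.1% lower of all genes tested. The tubulins' share went from 0.594% ± 0.00404 of counts in Ctrl libraries (SD, n = 3) to 0.233% ± 0.0172 in Cadict libraries (SD, n = 3). Tubb5, which had the most counts of the tubulins in Ctrl cells, went from 1611 ± 18.7 to 803 ± 62.7 CPM (SD, n = 3 each), and the alpha tubulin Tuba1c rose by 1.5, although 52.7% of its stretches are shared. The other tubulin that rose, Tuba3b, had no count in the Ctrl libraries and at most 1.92 CPM in the Cadict libraries. Without Cadict replicate 1 or 3 the number of tubulins called lower was 1.

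Among genes of the extracellular matrix, 9 of 50 collagens, laminins and integrins rose and 12 fell, with a median of -0.33 (-1.28 with library totals, 2 higher and 28 lower). The fibrillar collagens Col3a1 and Col1a2 fell with -3.81 and -2.19, and Col3a1 had 388, 353 and 365 CPM in the Ctrl libraries and 28.9, 24.8 and 24.9 CPM in the Cadict libraries. Fibronectin Fn1 and the integrin chain Itgb1 rose by 1.3 and 1.52. In the Hippo list 7 of 22 members rose and 2 fell, but with library totals 3 were higher and 8 lower, and the median of 0.20 was -0.75 with library totals and -0.06 with upper quartile scaling. The YAP target Ccn2 (CTGF) rose by 3.88. In the TGF-beta and BMP list 8 of 26 rose (30.8%) and 6 fell (23.1%), against 20.7% and 27.1% of all genes tested. With library totals 2 were higher and 14 lower, and the median of -0.09 was -1.04 with library totals and 0.03 with DESeq2 size factors. The feedback inhibitors Pmepa1, Skil and Smad7 rose by 3.00, 2.67 and 1.82, while the receptor Tgfbr2, the signal transducer Smad3 and the ligand Tgfb3 fell with -2.29, -1.76 and -3.90.

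Mitotic genes had the lowest median of the lists. Of 42 members 30 fell and 0 rose, with a median of -1.42 under TMM, -1.3 with DESeq2 size factors and -2.37 with library totals, and their share went from 0.907% ± 0.0109 of counts in Ctrl libraries (SD, n = 3) to 0.218% ± 0.00917 in Cadict libraries (SD, n = 3). The polo-like kinase Plk1 had 96.8, 97.6 and 94.3 CPM in the Ctrl libraries and 9.09, 5.75 and 6.72 CPM in the Cadict libraries. All Cadict libraries lay below all Ctrl libraries, and the log2 fold change was -3.74 (standard error 0.10, adjusted p = 1.1e-14, quasi-likelihood F test of edgeR, Benjamini-Hochberg adjusted). The mitotic kinesins Kif2c and Kif20a, cyclin A2 (Ccna2), cyclin B1 (Ccnb1) and the kinase Cdk1 fell with -3.31, -2.87, -2.85, -2.49 and -1.76. Bub3, Birc5 (survivin) and Tpx2 had 0.86, 0.38 and 0.25 and were not called. DNA replication genes had a median nearer 0: 4 of 44 rose and 8 fell, with a median of 0.14 (-0.82 with library totals, 0 higher and 20 lower, -0.12 with upper quartile scaling, 0.06 without Cadict replicate 2). Of the 6 subunits of the MCM helicase 1 was called higher, and their median was 0.35 with TMM and -0.61 with library totals. Orc6, a subunit of the origin recognition complex, rose by 1.78, and the thymidine kinase Tk1 went from 123 ± 1.76 to 19.9 ± 0.407 CPM (SD, n = 3 each), with a log2 fold change of -2.63. Of 61 replication-dependent histone genes listed 9 were tested, and their messages lack a poly(A) tail, so a library made with oligo(dT) beads captures them poorly. The variant H2ax of that list, whose message can be polyadenylated, fell with -1.43.

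Cilium and centrosome genes, which build the sensory antenna of the cell and the spindle poles, had 2 of 73 higher and 32 lower, with a median of -0.87 (-1.82 with library totals, 0 higher and 58 lower). Cep68, which holds the centrioles together, had 37.2, 38 and 42.6 CPM in the Ctrl libraries and 2.63, 1.31 and 2.1 CPM in the Cadict libraries, and the groups were far apart (-4.28). The centrosomal proteins Cep250 and Cntrl fell with -2.02 and -2.03. Ift43 of the intraflagellar transport complex rose by 1.46 and was 1 of the cilium genes called higher. The number of cilium genes called higher was 1 without Cadict replicate 1 or Ctrl replicate 2. The Zfp zinc finger genes, most of them repressors that bind DNA, had 25 of 321 higher and 153 lower, with a median of -0.99 (-1.93 with library totals, 7 higher and 237 lower). Zfp330 changed by 2.70 and Zfp367 by 2.18, while Zfp41 and Zfp324 changed by -5.10 and -5.31. Histone-modifying enzymes had 5 of 63 higher and 15 lower (2 higher and 37 lower with library totals): the histone H3K27 demethylase Kdm6b rose by 2.06, and the acetyltransferase Kat2a and the methyltransferase subunit Ezh1 fell with -1.52 and -2.31. The Mediator complex had 7 of 32 higher and 6 lower, and the nucleoporins 4 of 25 and 2, shares near or below the background of 20.7% and 27.1%. With library totals they had 1 higher and 13 lower and 1 higher and 12 lower, and their medians of 0.14 and 0.19 became -0.82 and -0.76 (-0.12 and -0.07 with upper quartile scaling). Without Cadict replicate 3 the number of nucleoporins called higher was 2. The circadian clock had 3 of 18 higher and 2 lower, the latter Per3 (-3.03) and Dbp (-1.63), of which 1 was called without Cadict replicate 1 or 3 (0 higher and 5 lower with library totals).

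Among genes with a mean of at least 10 CPM over the 6 libraries and outside the excluded lists, the 8 largest rises were Hspa1a, Hspa1b, Hspb1, Hmox1, Grhl2, Atf3, Il11 and Efr3b. Grhl2, an epithelial transcription factor, had 2, 1 and 3 counts in the Ctrl libraries and 509, 524 and 587 in the Cadict libraries. The cytokine Il11 had 0.908, 1.08 and 0.698 CPM in the Ctrl libraries and 90.1, 84.1 and 83.5 CPM in the Cadict libraries, and Efr3b, which anchors a lipid kinase at the plasma membrane, had 1.12, 1.95 and 1.09 CPM in the Ctrl libraries and 107, 102 and 124 CPM in the Cadict libraries. Grhl2 was at or below 3 counts in each Ctrl library, Il11 and Efr3b were low but above that limit, and for all 3 genes each Cadict library lay far above each Ctrl library. Among the same genes the 8 largest falls were Exosc6, Klf2, Jrk, Cd248, Apc2, Galnt15, Chst12 and H1f0. Exosc6, a subunit of the RNA exosome, had 491, 479 and 454 counts in the Ctrl libraries and 0, 2 and 0 in the Cadict libraries, which is lower with Cadict by a ratio of 362 with a counting interval of 100.01 to 2991 (95%, exact binomial). All 50-base stretches of Exosc6 also occur in another annotated gene, so its count depends on how reads were assigned. The linker histone H1f0 had 262, 278 and 264 CPM in the Ctrl libraries and 6.80, 8.63 and 7.56 CPM in the Cadict libraries, and the groups did not overlap (-5.13, standard error 0.075). Cd248 (endosialin) had 38.4, 35.2 and 36.8 CPM in the Ctrl libraries and 0.935, 0.610 and 0.924 CPM in the Cadict libraries. Galnt15, an enzyme of mucin-type glycosylation, changed by -5.28, and the chondroitin sulfotransferase Chst12, Jrk and the Apc paralogue Apc2 changed by -5.19, -5.76 and -5.42.

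Genes often used as references did not move together. Of 15 such genes tested 5 were called higher and 3 lower with TMM, and their median of 0.20 was -0.76 with library totals (2 higher and 5 lower) and -0.06 with upper quartile scaling. Gapdh went from 2690.4 ± 76.1 to 7247 ± 621 CPM (SD, n = 3 each), with a log2 fold change of 1.43 (0.47 with library totals), Hprt changed by 1.76 and Ppia by 1.52. Actb (-0.02) and the TATA-binding protein Tbp (0.09) were nearest 0 with TMM, at -0.97 and -0.86 with library totals, whereas Gapdh and Pgk1 (0.70 with TMM, -0.25 with library totals) were nearer 0 with library totals than with TMM. Of the genes with the largest shares of counts in Ctrl cells outside the excluded lists, Ahnak, a scaffold protein with a very long coding sequence, fell from 0.370% to 0.0647% of the counts, and Emp1, a membrane protein, had -0.01 with TMM and took 0.331% and 0.170% of the counts.

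Genes with 1 or 2 exons were called lower in a larger share than genes with more exons. Gene models of GENCODE M21 (GRCm38) matched 11535 of the 11949 tested genes, 96.5%. Of 225 genes with 1 exon 48.0% were called lower and 15.6% higher, with a median log2 fold change of -1.12, and of 520 genes with 2 exons 46.5% were lower and 16.9% higher, with a median of -0.93. Of 3067 genes with 5 to 8 exons 23.2% were lower and 26.1% higher, with a median of 0.12. Among genes with at least 10 CPM 41.1% of 95 single-exon genes were lower, outside the Zfp genes 48.2% of 222, and 45.5% of 143 and 52.4% of 82 among shorter and longer transcripts. The 2-exon genes depended more on the level. With at least 10 CPM 31.9% of 251 were lower and 23.5% higher, with a median of -0.14. At that level 15.2% of 2140 genes with 5 to 8 exons were lower. In the other 3 subsets 46.0%, 45.6% and 48.0% of 2-exon genes were lower. These 4 subsets were chosen after seeing the data. Single-exon genes that rose included Hspa1b (10.37), Junb (2.17), Cebpb (1.81) and Ier5 (1.79), stress or immediate early genes, while H1f0 and Cd248 have 1 exon and were among the largest falls. By coding length the shortest 20% of genes had a median of 0.46 with 33.8% higher and 16% lower, and the longest had -0.53 with 10.7% and 33.3%. By GC content the highest 20% had a median of -0.51 with 34.9% lower. Across genes the Spearman correlation with the log2 fold change was -0.22 for coding length, -0.18 for transcript length, -0.12 for GC content and -0.02 for exon number over 11535 genes, as a description, since genes share libraries and are not independent replicates.

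**Figure D5:**
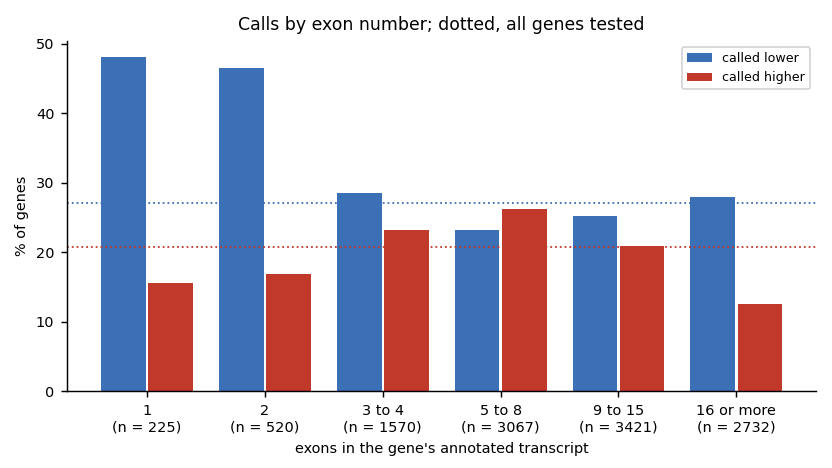
Percent of genes called lower and called higher in Cadict against Ctrl (y axis) by the number of exons in the annotated transcript (x axis, number of genes in brackets), with dotted lines at the values for all genes tested, 27.1% lower and 20.7% higher. Genes with 1 or 2 exons were called lower in 48.0% and 46.5% of cases, against 23.2% at 5 to 8 exons.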

How the data were processed

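Messenger RNA of MC38 cells was selected with oligo(dT) beads per the labels and sequenced. The submitters' processing notes name HISAT2 2.1.0, Bowtie2 2.3.4.3 and RSEM 1.3.1, without their roles, and the genome builds GRCm39 and GRCh38.p13. The labels and the study's methods differ on the extraction kit and on the sequencing instrument. The authors deposited RSEM expected counts per gene, with FPKM and TPM values per library beside them, and whether counting used strand is not given in the sources used here. The deposited table also holds normalised counts, a signal that the authors obtained by dividing by a size factor per library, and the authors' mean columns, which were not used. RSEM divides reads that match several genes, so values of near-identical genes depend on that division.

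Expected counts were rounded to whole numbers. Genes were filtered with filterByExpr, scaled by TMM and fitted with edgeR 4.0.16 (R 4.3.3) by a quasi-likelihood model over all 9 libraries in 3 groups, so that Cu-Cys libraries entered the estimate of the spread. Benjamini-Hochberg adjustment ran over the 11949 genes tested. Calls needed a 2-fold change or more together with an adjusted p no higher than 0.001, the limits that the study's methods name. The procedure was tested on simulated counts in which few genes changed, as many raised as lowered. Such counts do not test the choice of scaling. Levels are TMM-scaled CPM, except the marker sums and the limit set by 3 counts, which are unscaled. Depth was 17905771 to 18293056 counts per library, which limits the precision for low genes. Alternatives were other scalings, filters, DESeq2 1.42.0, a fit of the 6 libraries alone, a replicate block, each library left out, and limma 3.58.1 on log2(TPM + 1), log2(FPKM + 1) and log2(FPKM + 0.1), where fold changes of low genes are understated. Named genes were, outside the excluded lists, a fixed set of stress, metal, death and reference genes, the highest and lowest of each list and the 8 largest rises and falls among genes with a mean of at least 10 CPM over the 6 libraries (for rises and falls, with groups that do not overlap), and the 10 largest shares of counts in each group. Other members of the lists are named as examples chosen after their values were seen. The members and gene lists were chosen with earlier results of these data known. Gene models came from GENCODE M21 (GRCm38) and promoter windows from RefSeq (GRCm38.p6), neither of the build in the processing notes, and were joined by gene symbol. A few genes that these rules name are not reported here.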

Additional observations from a re-analysis of the deposited data

How the results depend on the processing

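Library totals gave 828 genes higher and 6148 lower, TPM 389 and 6475, FPKM 613 and 4956 (794 and 6033 with a pseudocount of 0.1), against 2472 and 3235 with TMM. An adjusted p of at most 0.05 with no limit on the fold change gave 10484 genes, 4857 higher and 5627 lower. Other alternatives stayed within 1.5 times the counts: a minimum of 10 counts in every library gave 2058 and 2743 of 10514 genes, no filter 2458 and 3497, the DESeq2 Wald test 2767 and 2929, and the 6 libraries alone 2512 and 3093. Leaving out each library gave 2416 to 2477 higher, 3132 to 3244 lower and 5592 to 5721 in all. Actg1 (1.13 with TMM), Msmo1 (1.2) and Tcp1 (1.17) were below 0 with TPM (-0.18, -0.0936 and -0.14). Among 744 values of 124 named genes with a library left out none changed sign and 3 changed their call: Fdx1 was called without Cadict replicate 3 (1.06), Sco1 likewise (-1.02), and Myc was not called without Cadict replicate 2 (-0.99). The medians of 19 lists changed sign with library totals, 22 with TPM, 20 with FPKM, 9 with upper quartile scaling, 1 with DESeq2 size factors and 0 with a library left out, where the largest move was 0.283. With a replicate block 2467 genes were higher and 3218 lower. The labels give the replicates only numbers, and residuals of same-numbered libraries over 8551 genes correlated at 0.0205, 0.152 and 0.0779, with 4 of 6 libraries correlating best with their own number, so the libraries were not treated as pairs. No spike-in is named in the sources used here, so the zero point of the fold changes cannot be set independently of these scalings.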

Other observations

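Gene families formed by the letters before the number in their symbols, taken where at least 15 genes were tested, gave 76 families, of which 28 had a median log2 fold change above 0 with TMM and 5 with library totals. Among the lowest medians were those of Fbxl, leucine-rich F-box proteins that select targets of ubiquitin ligases, with 9 of 16 genes lower and 2 higher (-1.51), and of Kif, the kinesin motors, with 18 of 28 lower and 1 higher (-1.49). The Kif family holds mitotic motors that also stand in the mitosis list. The Klhl adaptors of cullin-3 ligases had 12 of 22 lower and 1 higher, and the Zdhhc palmitoyltransferases 11 of 18 and 1, each with a median of -1.16. The Gpr receptors had 9 of 20 lower and 2 higher (-1.11). At the other end stood, outside the ribosomal and translation factor stems, Atp, ion pumps and ATP synthase, with 31 of 58 higher and 4 lower (1.15, and 0.20 with library totals) and Cox, cytochrome oxidase subunits and assembly factors, with 12 of 21 higher and 2 lower (1.08, and 0.12 with library totals). The Ube family of ubiquitin-activating and conjugating enzymes had 17 of 38 higher and 5 lower, with a median of 0.80 that was -0.15 with library totals. The broad families of solute carriers (Slc, 53 of 203 higher and 48 lower) and Rab GTPases (11 of 55 higher and 13 lower) lay near the background of 20.7% higher and 27.1% lower. Stems group genes by name, and members of one stem can differ in function.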
